A study of Mus musculus with 17 samples.

Results

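Solute carriers are membrane proteins that move amino acids, sugars, ions, metals, vitamins and metabolites into cells and between their compartments. Expression of their genes was compared in *Nanog* KO and control mouse embryonic stem (ES) cells before and after a change to serum. The members are the genes with a symbol of the form Slc, family number, a, gene number that had at least 1 CPM (a read count scaled to library size) in at least 3 of 17 libraries. Of 230 rows with such a symbol, *Slc2a1*, *Slc2a3*, *Slc7a11*, *Slc22a18* and *Slc38a4* were left out by name and 6 were under the CPM minimum. This left 219 of the 15117 genes tested, from 46 families, and 173 of them had at least 1 CPM in every library. At the edge of the CPM minimum, the 6 left out (*Slc1a2*, *Slc2a10*, *Slc2a13*, *Slc8a1*, *Slc18a3* and *Slc44a5*) had at least 1 CPM in 2 libraries each, with a highest value of 1.14 to 2.83 CPM. *Slc2a6*, *Slc4a9*, *Slc13a1*, *Slc25a48* and *Slc28a3* were just inside it with 3 libraries each.

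The *Nanog* KO cells were the line BT12, which lacks a working *Nanog* gene, and the controls were E14Tg2a cells, the parental line from which BT12 was made. Both lines were grown with LIF, knockout serum replacement and the 2i inhibitors CHIR-99021 and PD0325901, over inactivated mouse embryonic fibroblasts, which holds ES cells in the naïve state. They were then moved to medium with serum and collected at 0, 12 and 24 h. Polyadenylated RNA was sequenced from 3 libraries per genotype and time, except the control at 0 h, which has 2. All mutant libraries come from 1 line, so the gene and the line cannot be told apart. The labels do not say that the libraries came from separate cultures, and the p-values then rest on a spread between libraries that may be technical.

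Library depth was 8775372 to 33766086 reads, at which 3 reads equal 0.0851 to 0.326 CPM, so members near 1 CPM rest on few reads in the shallowest libraries. *Nanog* was 12.5 to 34.6 CPM in the mutant libraries and 271 to 412 CPM in the control libraries. All 14 ES cell markers listed were detected, *Pou5f1* at 693 to 1255 CPM by group mean. Of them 6, 4 and 4 were higher and 6, 5 and 6 lower in *Nanog* KO cells at 0, 12 and 24 h. Over all genes tested 25.4%, 24.6% and 23.4% were higher and 26.9%, 25.2% and 24.5% lower. Markers of other cell types also moved with genotype: of 17 primitive endoderm genes, 16, 17 and 17 were higher in *Nanog* KO cells at 0, 12 and 24 h. Their summed level at 24 h was 3330 to 3579 CPM in *Nanog* KO and 819 to 840 CPM in control libraries. Of 10 trophoblast genes, 7, 6 and 5 were higher and 3, 3 and 2 lower, and their summed level was 1677 to 1750.0 CPM against 1157 to 1258 CPM at 0 h and 855 to 998 CPM against 478 to 533 CPM at 24 h. Of the 3 lower at 0 h, *Cdx2* had a mean of 4.06 against 32.0 CPM. Of the 7 higher, *Hand1* had a mean of 29.2 against 1.55 CPM. *Krt8* (882 against 629 CPM) and *Krt18* (546 against 356 CPM) had the highest means of that list at 0 h. The summed level of 23 fibroblast genes, which the feeder cells express, fell with time, from 2994 to 3200 CPM at 0 h to 1268 to 1417 CPM at 24 h without *Nanog*. The control libraries went from 3709 to 3961 CPM to 2281 to 2534 CPM. No tested marker of these lists was at 0 as a group mean, and the part of these cells in the results was not tested. In bulk RNA, fewer cells of a type cannot be told apart from less RNA per cell.

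Family numbers follow the protein families, and most families share a kind of substrate. Families 1, 7, 38 and 43 carry amino acids, family 39 (ZIP) brings zinc and related metals into the cytosol and family 30 (ZnT) takes zinc out of it. Family 16 carries lactate and other monocarboxylates with a proton, and family 25 holds the carriers of the inner mitochondrial membrane. The families were grouped into 11 substrate classes, and the class counts go by family number. A member whose own substrate differs from its family's is described by its own but counted with its family.

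More members were higher than lower in *Nanog* KO cells at each time. At 0 h, 75 of 219 members were higher and 53 were lower at an adjusted p under 0.05 (limma, on log2(CPM + 1)), and over all genes tested 25.4% were higher and 26.9% lower. At 12 h 71 were higher and 49 lower, where 24.6% of all genes were higher and 25.2% lower. At 24 h 79 were higher and 47 lower, where 23.4% of all genes were higher and 24.5% lower. As shares, 34.2%, 32.4% and 36.1% of members were higher. The median log2 fold change over members was 0.04, 0.06 and 0.12 at the 3 times, and over all genes -0.01, -0.00 and -0.01. Differences of at least 2-fold were fewer, with 12 members higher and 11 lower at 0 h, 7 and 8 at 12 h and 8 and 3 at 24 h. The shares of all genes at that limit were not counted, so these counts do not set the members apart from other genes.

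Of the 219 members, 46 were higher in *Nanog* KO cells at all 3 times, or 21.0%, where 12.8% of all genes tested were. Another 26 members were lower at all 3 times, or 11.9%, where 13.2% of all genes were. There were 7 members higher at one time and lower at another, where 3.72% of all genes were (3.20% of members). A difference passed at no time in 45 members, or 20.5%, where it passed at no time in 26.6% of all genes. The 3 comparisons use different libraries of the same 2 lines.

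The 46 members that were higher at all 3 times include 9 mitochondrial carriers and relatives of family 25, 4 members of family 38 and the heavy chain *Slc3a2*. Among them are *Slc1a5*, *Slc2a7*, *Slc3a2*, *Slc5a11*, *Slc5a5*, *Slc5a6*, *Slc6a8*, *Slc7a1*, *Slc7a7*, *Slc7a8*, *Slc12a5*, *Slc13a5*, *Slc16a6*, *Slc16a9*, *Slc17a5*, *Slc17a9*, *Slc18a1*, *Slc20a1*, *Slc25a13*, *Slc25a16*, *Slc25a17*, *Slc25a20*, *Slc25a3*, *Slc25a31*, *Slc25a32*, *Slc25a33*, *Slc26a2*, *Slc29a1*, *Slc30a2*, *Slc30a6*, *Slc30a9*, *Slc34a2*, *Slc37a2*, *Slc37a3*, *Slc38a1*, *Slc38a2*, *Slc38a6*, *Slc38a7*, *Slc39a4*, *Slc41a2*, *Slc43a2*, *Slc43a3*, *Slc44a3*, *Slc45a4* and *Slc47a1*. The 26 that were lower at all 3 times include 6 zinc importers of family 39 and 4 members of family 25, and are *Slc2a12*, *Slc4a4*, *Slc4a5*, *Slc5a3*, *Slc6a15*, *Slc6a17*, *Slc6a6*, *Slc7a3*, *Slc15a1*, *Slc22a17*, *Slc22a3*, *Slc25a12*, *Slc25a24*, *Slc25a28*, *Slc25a30*, *Slc30a7*, *Slc38a10*, *Slc39a1*, *Slc39a10*, *Slc39a11*, *Slc39a2*, *Slc39a6*, *Slc39a7*, *Slc43a1*, *Slc50a1* and *Slc52a3*. The 7 that were higher at one time and lower at another are *Slc1a4*, *Slc4a2*, *Slc10a7*, *Slc16a1*, *Slc23a2*, *Slc38a3* and *Slc39a8*.

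**Figure D1:**
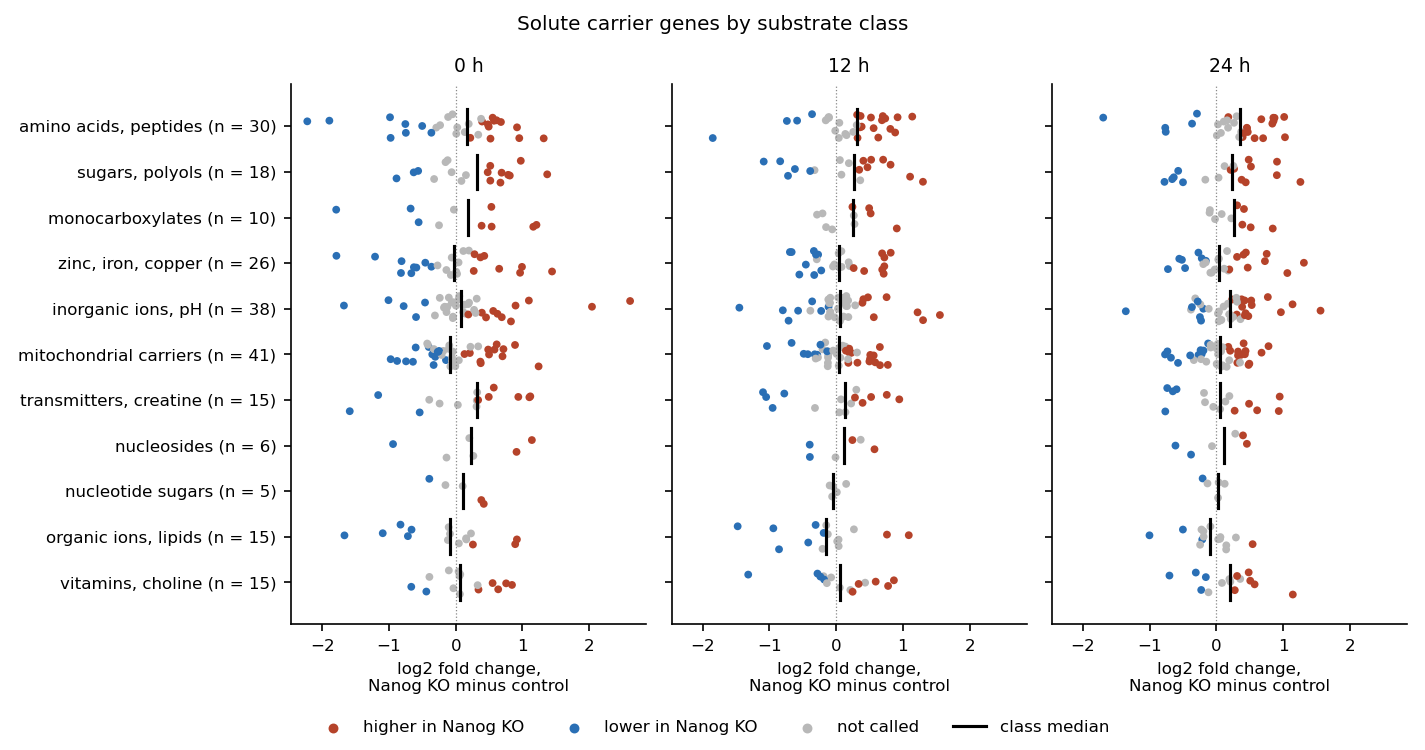
Log2 fold change between *Nanog* KO and control cells (horizontal axis) of each solute carrier gene at 0, 12 and 24 h, by substrate class (vertical axis), with 1 point per gene, coloured by the limma call, and a black line at the class median. Points lie on both sides of 0 in every class, and the amino acid class has its median at 0.17, 0.31 and 0.36.

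The members with the largest genotype differences at every time came from several families, and family 6 went both ways (*Slc6a8* higher and *Slc6a15* lower). Among called members with a mean of at least 5 CPM in either genotype, *Slc37a2*, *Slc6a8*, *Slc5a5* and *Slc38a7* were in the 10 with the largest positive difference at 0, 12 and 24 h. *Slc15a1*, *Slc4a5* and *Slc6a15* were in the 10 with the largest negative difference at all of them. *Slc37a2* (ENSMUSG00000032122, GRCm38 chromosome 9) encodes an exchanger of sugar phosphates and phosphate in the endoplasmic reticulum. It was 6.51, 7.11 and 7.75 CPM in the *Nanog* KO libraries and 1.93 and 2.35 CPM in the control libraries at 0 h. At 24 h it was 10.2, 6.91 and 9.01 CPM against 2.99, 3.59 and 2.53 CPM. The groups did not overlap at any time, and the log2 fold changes were 1.37 ± 0.16 (SE; adjusted p = 6.2e-07, limma), 1.30 and 1.26.

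*Slc15a1* (ENSMUSG00000025557, chromosome 14) encodes the peptide transporter PEPT1, which takes up dipeptides and tripeptides with protons. It was the member with the most negative difference at each time, at 1.72, 1.54 and 2.10 CPM in *Nanog* KO and 12.3 and 11.7 CPM in control libraries at 0 h. At 24 h it was 1.05, 1.45 and 1.04 CPM against 4.97, 6.64 and 6.68 CPM, with no overlap. The log2 fold changes were -2.22 ± 0.20 (SE; adjusted p = 2.0e-08, limma), -1.85 and -1.70, and the change over 24 h in control cells was -0.88.

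The promoters of these 2 genes are shown because they had the largest mean difference over the 3 times in each direction, among the 7 members just named that have an entry in the RefSeq promoter table (GRCm38.p6), which matched 165 of the 219 members. Each window runs from 250 bases before to 50 after the annotated start. Capitals mark matches, on either strand, to any of 4 short motifs: ACGTG (the core of the hypoxia response element), TGCGCNC or TGCACNC (the core of the metal response element), TGACTCA (the AP-1 site) and TGATGNAA (the amino acid response element).
*Slc37a2* (chr9:37255689-37255988, minus strand): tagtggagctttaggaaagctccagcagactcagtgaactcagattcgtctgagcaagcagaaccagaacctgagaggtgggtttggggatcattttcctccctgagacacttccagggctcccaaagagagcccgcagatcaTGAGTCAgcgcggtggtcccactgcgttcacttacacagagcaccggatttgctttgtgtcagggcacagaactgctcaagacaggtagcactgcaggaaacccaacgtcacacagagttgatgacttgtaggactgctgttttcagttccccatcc
*Slc15a1* (chr14:121505205-121505504, minus strand): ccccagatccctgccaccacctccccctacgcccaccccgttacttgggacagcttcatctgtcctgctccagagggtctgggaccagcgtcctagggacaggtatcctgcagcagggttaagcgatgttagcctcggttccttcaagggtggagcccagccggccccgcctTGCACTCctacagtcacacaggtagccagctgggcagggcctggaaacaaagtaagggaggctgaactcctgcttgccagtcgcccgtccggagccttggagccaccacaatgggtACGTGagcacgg
The *Slc37a2* window holds 1 match to the AP-1 site, 107 bases before the start, and 5.20% of all 32851 promoters of the table hold at least 1. The *Slc15a1* window holds 1 metal response core and 1 hypoxia core, which 25.7% and 19.6% of all promoters hold. A match is a description of the letters and not evidence of a factor at the site.

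*Slc6a8*, the creatine transporter, was 204, 215 and 217 CPM in *Nanog* KO and 90.0 and 105 CPM in control libraries at 0 h, and 168, 171 and 174 against 89.3, 88.2 and 87.2 CPM at 24 h. The *Nanog* KO libraries were higher throughout, by log2 fold changes of 1.12 ± 0.06 (SE; adjusted p = 2.5e-11, limma), 0.95 and 0.95. *Slc5a5*, the sodium and iodide symporter known from the thyroid, rose with time in both genotypes and stayed apart at log2 fold changes of 0.97, 0.82 and 0.91. Its level at 12 h was 30.7, 32.5 and 30.5 CPM in *Nanog* KO and 16.7, 18.7 and 16.5 CPM in control libraries. *Slc38a7*, a glutamine transporter that in human cells lies on lysosomes, had no called change with time and was higher in *Nanog* KO cells by 0.95, 0.81 and 0.86. Among the lower members, *Slc4a5*, a sodium bicarbonate cotransporter, was 7.39, 7.32 and 7.40 CPM against 24.7 and 26.8 CPM at 0 h and 12.6, 11.4 and 13.2 CPM against 37.7, 32.0 and 30.7 CPM at 24 h. It rose in both genotypes over 24 h without closing the gap, the log2 fold changes being -1.68 ± 0.10 (SE; adjusted p = 2.2e-10, limma), -1.45 and -1.36. *Slc6a15*, a transporter of branched-chain amino acids and proline in brain, was lower, with log2 fold changes of -1.16, -1.10 and -0.77.

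Members of the families classed as amino acid and peptide transporters were higher in *Nanog* KO cells more often than lower. Of these 30 members, 12 were higher and 8 lower at 0 h, 15 and 4 at 12 h and 15 and 5 at 24 h, with medians of 0.17, 0.31 and 0.36. They include *Slc43a3*, which carries purine nucleobases and was higher at all 3 times. They leave out family 6, with *Slc6a15*, an amino acid transporter that was lower at all 3 times. Over all genes the higher and lower shares were 25.4% and 26.9%, 24.6% and 25.2%, and 23.4% and 24.5%, so the lower calls at 0 h were near the background. Over 24 h, rises numbered 17 and falls 2 in *Nanog* KO cells, against 7 and 9 in control cells (over all genes 28.8% and 29.5%, against 26.1% and 28.7%). By the interaction, the change was more positive in *Nanog* KO cells in 10 members and more negative in 1, *Slc43a3* (15.5% and 14.3% of all genes). Of the 8 members of family 38, the sodium-coupled neutral amino acid transporters, 4, 5 and 6 were higher and 2, 1 and 1 lower at the 3 times.

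*Slc38a2* (ENSMUSG00000022462, chromosome 15) encodes the system A transporter SNAT2, which takes up glutamine and alanine and is known to be induced when amino acids are scarce. At 0 h it was 293, 283 and 306 CPM in *Nanog* KO and 190.5 and 204 CPM in control libraries. At 12 h it was 759, 738 and 737 CPM against 347, 315 and 351 CPM, and at 24 h 889, 721 and 789 CPM against 447, 447 and 429.9 CPM. *Slc38a2* thus rose in both genotypes and was higher in every *Nanog* KO library, by log2 fold changes of 0.57, 1.14 ± 0.06 (SE; adjusted p = 5.1e-11, limma) and 0.85. *Slc38a1*, the related system A transporter SNAT1, had no called rise. It was 253, 255 and 253 CPM against 151 and 181 CPM at 0 h and 251, 247 and 236 CPM against 118, 117 and 124 CPM at 24 h, where the change in control cells was -0.46 on the log2 scale. Its genotype difference was 0.61 at 0 h and 1.03 ± 0.05 (SE; adjusted p = 2.0e-11, limma) at 24 h, and the interaction was called (0.41, adjusted p = 7.4e-04, limma).

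*Slc38a1* and *Slc38a2* lie on chromosome 15, whose genes were higher in *Nanog* KO cells as a whole. Of 588 genes tested there, 62.2%, 68.7% and 70.2% were higher at 0, 12 and 24 h, with medians of 0.41, 0.43 and 0.44. Of the 11 members on that chromosome 6, 9 and 9 were higher (medians 0.48, 0.50 and 0.51), with 1 lower at 0 h and 1 at 24 h. Besides the pair above these are *Slc1a3*, *Slc4a8*, *Slc11a2*, *Slc25a17*, *Slc25a32*, *Slc39a4*, *Slc45a4*, *Slc48a1* and *Slc52a2*. The part of the chromosome in their differences was not tested. Among the 208 members elsewhere, 69, 62 and 70 were higher and 52, 49 and 46 lower.

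The cationic amino acid transporters of family 7 went in opposite directions. *Slc7a1* (CAT1, ENSMUSG00000041313, chromosome 5), the widely expressed carrier of arginine and lysine, was 72.6, 73.6 and 71.7 CPM in *Nanog* KO and 45.5 and 58.8 CPM in control libraries at 0 h. At 24 h it was 83.3, 83.9 and 68.8 against 36.1, 37.3 and 41.6 CPM, with log2 fold changes of 0.48 at 0 h and 1.01 ± 0.09 (SE; adjusted p = 3.8e-08, limma) at 24 h. *Slc7a3* (CAT3, ENSMUSG00000031297, chromosome X), a carrier of the same amino acids known from brain, was lower, at 40.4, 43.4 and 44.6 CPM against 74.4 and 71.2 CPM at 0 h. It rose in both genotypes, to 110.4, 90.0 and 118 CPM in *Nanog* KO and 183, 179 and 179 CPM in control libraries, and the difference was -0.75 ± 0.08 (SE; adjusted p = 5.1e-07, limma) at 0 h and -0.77 at 24 h. No library of one genotype reached the other's range for *Slc7a1* or *Slc7a3* at any time. *Slc7a2*, another cationic carrier, was at 2.75 CPM in *Nanog* KO and 1.96 CPM in control cells at 0 h, a log2 fold change of 0.34 that did not pass.

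**Figure D2:**
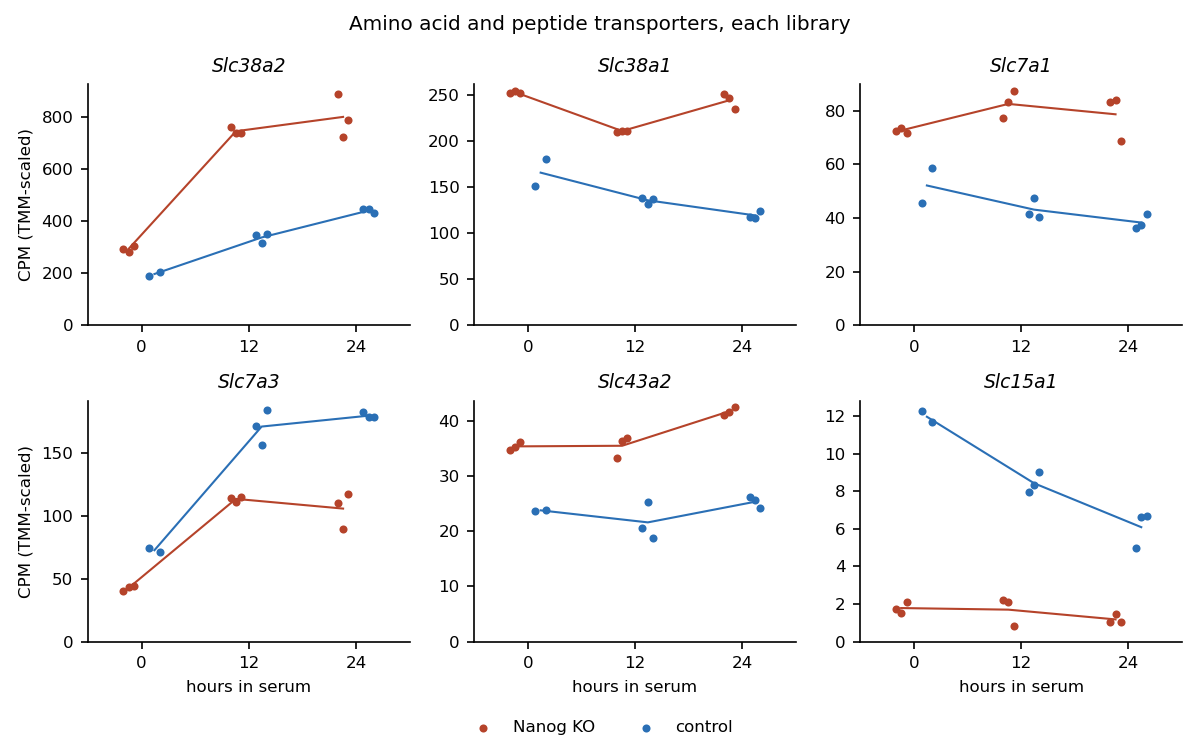
TMM-scaled CPM (vertical axis, from 0) of 6 amino acid and peptide transporters against hours in serum (horizontal axis), with 1 point per library and lines through the group means. *Slc38a2*, *Slc38a1*, *Slc7a1* and *Slc43a2* are higher and *Slc7a3* and *Slc15a1* lower in every *Nanog* KO library than in any control library of the same time.

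Large neutral amino acids such as leucine enter through LAT1 (*Slc7a5*), which needs the heavy chain *Slc3a2*, and through family 43. *Slc3a2* was higher in *Nanog* KO cells by 0.40, 0.38 and 0.46 on the log2 scale. *Slc7a5* did not pass at 0 h (-0.05, adjusted p = 0.61, limma), rose to 232, 233 and 248 CPM in *Nanog* KO against 186, 193 and 192 CPM in control libraries at 12 h, and differed by 0.32 and 0.39. *Slc43a2* (LAT4) was higher by 0.55, 0.70 and 0.70. *Slc43a1* (LAT3), which also carries leucine, was lower, at 3.65, 3.72 and 4.25 CPM against 16.5 and 17.7 CPM at 0 h and by log2 fold changes of -1.89 ± 0.14 (SE; adjusted p = 1.5e-09, limma), -0.74 and -0.76. The light chains *Slc7a7* and *Slc7a6*, which exchange cationic for neutral amino acids, differed in pattern. *Slc7a7* rose in both genotypes and was 188, 193 and 198 CPM in *Nanog* KO and 129.6, 121 and 112 CPM in control libraries at 24 h (0.67), while *Slc7a6* was lower at 0 h (-0.75) and did not pass at 24 h (0.01).

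The family 1 carriers of small neutral and acidic amino acids were also apart. *Slc1a4* (ASCT1, serine and alanine) was 16.3, 19.6 and 17.4 CPM in *Nanog* KO and 35.8 and 36.2 CPM in control libraries at 0 h, and 24.9, 24.2 and 23.4 CPM against 19.5, 18.1 and 19.9 CPM at 12 h. The order of the genotypes turned, with log2 fold changes of -0.98 ± 0.08 (SE; adjusted p = 3.5e-09, limma) and 0.32 ± 0.07 (SE; adjusted p = 6.3e-04, limma). *Slc1a5* (ASCT2), the main glutamine exchanger of many dividing cells, was higher in *Nanog* KO cells by 0.22, 0.52 and 0.46. *Slc1a3* (GLAST), a glutamate transporter of glia, was lower at 0 h, at 4.37, 3.98 and 4.60 CPM against 9.23 and 9.65 CPM (log2 fold change -0.98).

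The zinc carriers split by family. Of the 12 ZIP members of family 39, 7, 7 and 6 were lower and 1, 2 and 2 higher at 0, 12 and 24 h, with medians of -0.52, -0.30 and -0.18. Of the 9 ZnT members of family 30, 1 was lower at each time and 5, 3 and 5 were higher, with medians of 0.27, 0.19 and 0.31. Over all genes 26.9%, 25.2% and 24.5% were lower and 25.4%, 24.6% and 23.4% higher, and the ZnT count at 12 h was near the share of all genes. *Slc39a1*, *Slc39a2*, *Slc39a6*, *Slc39a7*, *Slc39a10* and *Slc39a11* were lower at all 3 times. *Slc39a10* (ENSMUSG00000025986, chromosome 1), a zinc importer of the cell surface, was 117, 117 and 117 CPM in *Nanog* KO and 178 and 194 CPM in control libraries at 0 h, a log2 fold change of -0.67 ± 0.07 (SE; adjusted p = 2.2e-07, limma). *Slc39a6*, its close relative, had log2 fold changes of -0.82, -0.69 and -0.73. Those of *Slc39a7*, which releases zinc from the endoplasmic reticulum, were -0.63, -0.30 and -0.16, and the last did not pass without replicate 1 (-0.16) or 2 (-0.12) of *Nanog* KO or replicate 1 (-0.10) or 3 (-0.16) of control at 24 h. For *Slc39a6* and *Slc39a10* the groups did not overlap at any time.

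*Slc39a4* was the ZIP member that was higher at all 3 times. It encodes the zinc importer of the gut, whose loss in people causes the zinc deficiency acrodermatitis enteropathica. *Slc39a4* was 90.0, 94.4 and 95.2 CPM in *Nanog* KO and 31.4 and 35.9 CPM in control libraries at 0 h, and 119.6, 107 and 133 against 61.3, 53.1 and 55.9 CPM at 24 h, with no overlap. The log2 fold changes were 1.44 ± 0.08 (SE; adjusted p = 5.4e-11, limma), 0.69 and 1.06, beside chromosome 15 medians of 0.41, 0.43 and 0.44. Among the ZnT members *Slc30a2*, which loads zinc into vesicles and into milk, had the largest difference at each time, at 47.4, 45.8 and 45.1 CPM against 22.1 and 23.2 CPM at 0 h and by 0.99 ± 0.06 (SE; adjusted p = 1.6e-10, limma), 0.82 and 0.73. *Slc30a6*, a zinc transporter of the Golgi, was higher by 0.43, 0.42 and 0.44, and *Slc30a9* by 0.27, 0.71 and 0.31. *Slc30a7*, the ZnT member that was lower, had log2 fold changes of -0.36, -0.22 and -0.22. It lost its call at 0 h once control replicate 3 was left out (-0.27, limma, adjusted p = 0.081), at 12 and 24 h by DESeq2 (-0.23 and -0.24), or at those times without any 1 of several libraries.

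**Figure D3:**
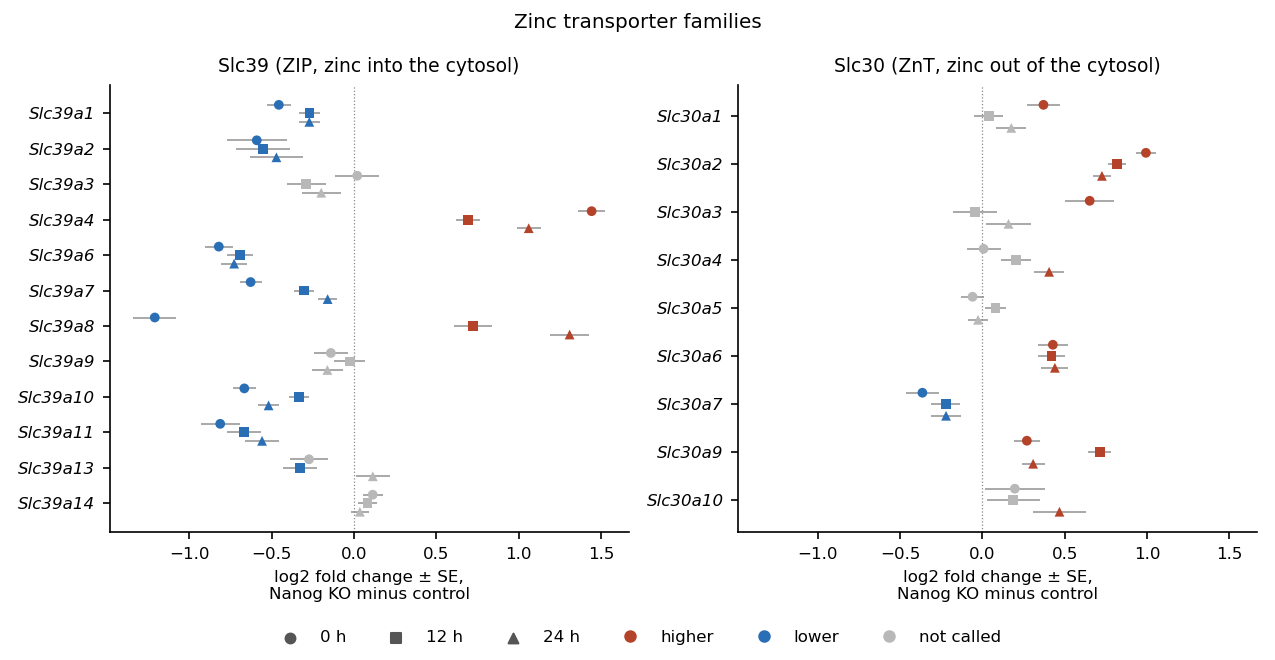
Log2 fold change ± SE between *Nanog* KO and control cells (horizontal axis) of the 12 ZIP genes (left) and the 9 ZnT genes (right) at 0, 12 and 24 h, coloured by the limma call. At 0 h 7 ZIP genes lie below 0 as called and *Slc39a4* lies at 1.44, while 5 ZnT genes lie above 0 as called.

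Among iron carriers, *Slc40a1* (ferroportin, ENSMUSG00000025993, chromosome 1), the iron exporter of the cell, was 8.18, 7.64 and 6.30 CPM in *Nanog* KO and 26.5 and 29.2 CPM in control libraries at 0 h (log2 fold change -1.79 ± 0.13, SE; adjusted p = 1.1e-09, limma). It rose in *Nanog* KO libraries to 25.3, 19.6 and 21.2 CPM at 24 h, where control libraries were at 20.8, 23.5 and 25.2 CPM and overlapped them. *Slc11a2* (DMT1), which takes up ferrous iron, was not called at 0 h (0.04) and was higher in *Nanog* KO cells by 0.69 and 0.75 in serum, where the change in control cells was -0.96 by 24 h. *Slc11a2* also lies on chromosome 15. The copper importer *Slc31a1* fell over 24 h in both genotypes, with log2 fold changes of -0.22 and -0.49.

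Members of the families classed as sugar and polyol carriers had more rises than falls with time. Of 18 members, 8 had risen and 2 had fallen by 24 h without *Nanog*, against 9 and 0 in control cells. These counts include the iodide carrier *Slc5a5*, which rose in both genotypes. They also include *Slc5a6*, a carrier of biotin and pantothenate, which fell in *Nanog* KO and rose in control cells. Over all genes 28.8% had risen and 29.5% fallen without *Nanog*, and 26.1% and 28.7% in control cells. At an unadjusted p under 0.05 (limma) 0 of the control values fell, and edgeR and DESeq2 also called 0. *Slc5a11*, an inositol transporter, was among the members that rose most in both genotypes. It went from 4.32, 4.25 and 4.16 to 17.8, 15.7 and 19.8 CPM in *Nanog* KO libraries, a log2 fold change of 1.83 ± 0.11 (SE; adjusted p = 1.2e-10, limma), and from 2.27 and 2.23 to 15.1, 12.7 and 10.9 CPM in control libraries, one of 2.08 ± 0.12 (SE; adjusted p = 1.3e-10, limma). *Slc5a3*, the other inositol carrier of family 5, which cells use against osmotic stress, peaked at 12 h in control libraries at 21.2, 24.3 and 22.8 CPM, where *Nanog* KO libraries held 13.0, 13.8 and 10.3 CPM. *Slc5a3* was lower in *Nanog* KO cells at each time (-0.56, -0.84 and -0.50; the call at 0 h was lost when control replicate 2 was left out, -0.40), as was *Slc6a6*, which carries the osmolyte taurine (-0.54, -0.78 and -0.60). *Slc5a1* (SGLT1), the sodium glucose cotransporter of the gut, rose to 8.01, 8.39 and 7.37 CPM in control and 4.04, 4.01 and 4.55 CPM in *Nanog* KO libraries and the difference at 24 h was -0.78 ± 0.13 (SE; adjusted p = 5.5e-05, limma). *Slc50a1*, a sugar exporter, was lower at all 3 times, with -0.89, -1.08 and -0.66. *Slc5a6*, a sodium-coupled carrier of biotin and pantothenate, was higher by 0.81 at 0 h.

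Of the 10 monocarboxylate carriers of family 16, 6 had fallen and 0 had risen by 12 h without *Nanog*, against 5 and 0 in control cells, where 26.1% and 24.5% of all genes had fallen. Over all genes 25.7% had risen by 12 h without *Nanog* and 22.6% in control cells. By 24 h 2 had risen and 4 had fallen without *Nanog*, against 1 and 5 in control cells (over all genes 28.8% and 29.5%, against 26.1% and 28.7%). The count of rises at 12 h was also 0 in both genotypes at an unadjusted p under 0.05 (limma) and by edgeR and DESeq2. *Slc16a3* (MCT4, ENSMUSG00000025161, chromosome 11), the lactate exporter of glycolytic cells and a known target of the hypoxia factor HIF-1, was lower in every library at 12 h than in any at 0 h in both genotypes, and came part of the way back by 24 h. It was 332, 331 and 325 CPM in *Nanog* KO libraries at 0 h, 48.1, 52.6 and 59.2 CPM at 12 h and 149.9, 139 and 179 CPM at 24 h. In control libraries it was 381 and 402, then 34.6, 39.5 and 36.4 and then 138, 97.2 and 95.0 CPM. The change to 12 h was -2.61 ± 0.11 (SE; adjusted p = 2.7e-12, limma) in *Nanog* KO and -3.38 ± 0.13 (SE; adjusted p = 6.9e-13, limma) in control cells, and by 24 h -1.08 and -1.84. *Slc16a3* was higher in *Nanog* KO cells in serum (0.52 and 0.51) and did not pass at 0 h (-0.25, adjusted p = 0.11, limma). That difference passed once control replicate 1 at 24 h was left out (limma, adjusted p = 0.025) and with only the 0 h groups in the fit.

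*Slc16a1* (MCT1), which carries lactate and pyruvate both ways, was 126, 129 and 128 CPM in *Nanog* KO and 201 and 208 CPM in control libraries at 0 h. At 24 h it was 165, 156 and 152 CPM against 125, 130.0 and 126 CPM. It was thus lower at 0 h (log2 fold change -0.68 ± 0.05, SE; adjusted p = 1.9e-09, limma) and higher at 24 h (log2 fold change 0.31 ± 0.04, SE; adjusted p = 1.3e-05, limma) in *Nanog* KO cells, with no overlap at either time. *Slc16a6* and *Slc16a9* fell from 0 to 24 h in both genotypes and were higher in *Nanog* KO cells at all 3 times, *Slc16a9* by 1.16, 0.91 and 0.84.

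*Slc30a1* (ENSMUSG00000037434, chromosome 1), the zinc exporter of the cell surface, is induced by zinc through the metal response element and rose in both genotypes. It was 13.5, 13.2 and 15.2 CPM at 0 h and 36.0, 38.9 and 32.6 CPM at 12 h in *Nanog* KO libraries, and 9.10 and 12.2 and 35.7, 33.3 and 35.4 CPM in control libraries. The rise was 1.30 ± 0.09 (SE; adjusted p = 1.6e-09, limma) in *Nanog* KO and 1.63 ± 0.10 (SE; adjusted p = 5.1e-10, limma) in control cells, and the groups at 0 and 12 h did not overlap. *Slc30a2* peaked at 12 h in both genotypes, at 79.7, 82.6 and 79.5 CPM in *Nanog* KO and 47.0, 43.6 and 45.2 CPM in control libraries, and was below its starting level at 24 h (-0.54 and -0.28). *Slc30a10*, a manganese exporter, fell in both by 12 h, with log2 fold changes of -1.21 and -1.20, at group means of 2.71 CPM or less.

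The promoters of *Slc16a3* and *Slc30a1* are shown because these exporters of lactate and zinc changed in both genotypes within 12 h, in opposite directions. They were chosen after their values were seen. Capitals mark the same 4 motifs.
*Slc16a3* (chr11:120948817-120949116, plus strand): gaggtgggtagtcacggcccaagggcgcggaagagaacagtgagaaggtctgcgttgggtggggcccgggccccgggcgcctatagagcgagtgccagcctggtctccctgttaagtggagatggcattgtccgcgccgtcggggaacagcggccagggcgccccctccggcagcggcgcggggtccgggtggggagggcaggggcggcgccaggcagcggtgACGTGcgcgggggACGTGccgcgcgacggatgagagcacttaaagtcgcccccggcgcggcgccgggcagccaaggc
*Slc30a1* (chr1:191906531-191906830, plus strand): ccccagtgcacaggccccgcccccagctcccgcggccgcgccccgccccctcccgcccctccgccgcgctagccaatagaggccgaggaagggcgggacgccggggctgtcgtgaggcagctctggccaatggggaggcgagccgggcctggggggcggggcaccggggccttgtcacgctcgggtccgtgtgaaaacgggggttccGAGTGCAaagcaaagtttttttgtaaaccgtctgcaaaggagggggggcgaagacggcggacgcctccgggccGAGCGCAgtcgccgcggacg
The *Slc16a3* window holds 2 hypoxia cores, 27 and 14 bases before the start, and the *Slc30a1* window holds 2 metal response cores, 43 bases before and 31 bases after it by their first base. A hypoxia core stands in 19.6% of all promoters listed and a metal response core in 25.7%, and among the 219 promoters of members the shares are 28.8% and 32.9%. Matches to the AP-1 site are in 2.74% of the member promoters, and to the amino acid response element in 2.28% of them and 3.97% of all.

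**Figure D4:**
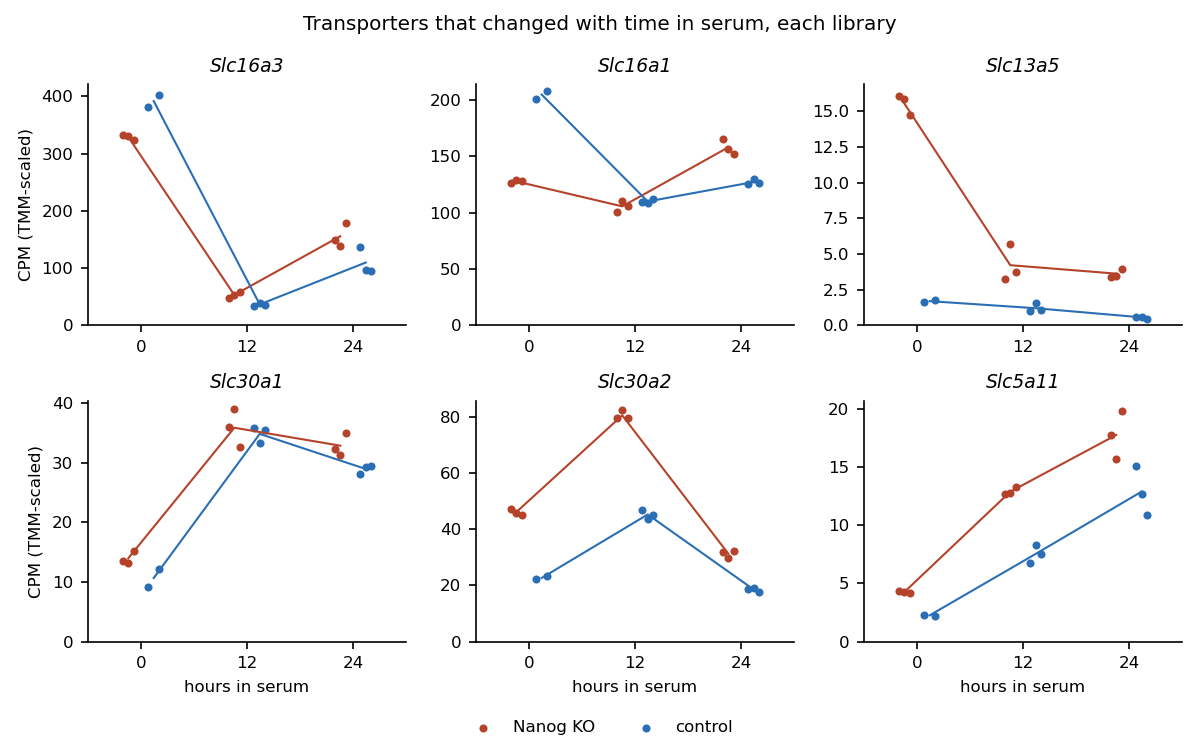
TMM-scaled CPM (vertical axis, from 0) of 6 transporters against hours in serum (horizontal axis), with 1 point per library and lines through the group means. *Slc16a3* is lowest and *Slc30a2* highest at 12 h in both genotypes, and *Slc30a1* and *Slc5a11* are higher at 12 and 24 h than at 0 h in every library.

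Mitochondrial carriers, the largest class with 41 members, were split. Their higher and lower calls numbered 12 and 13 at the start, 14 and 8 after 12 h and 13 and 10 after 24 h (over all genes 25.4% and 26.9%, 24.6% and 25.2%, and 23.4% and 24.5%), and the medians were -0.08, 0.05 and 0.06. The most abundant per kilobase of exon were *Slc25a5* (ANT2) and *Slc25a4* (ANT1), which exchange ADP and ATP, at 354 and 167 CPM per kilobase over all libraries, and the phosphate carrier *Slc25a3* at 115. The genotype differences of *Slc25a3* were 0.13, 0.18 and 0.21, and with quantile scaling none of these passed (0.09, 0.07 and 0.11, by limma). At 0 h it also did not pass without replicate 1 or 2 of *Nanog* KO (0.12 and 0.13) or control replicate 3 (0.10). *Slc25a4* fell in both genotypes over 24 h, with log2 fold changes of -0.55 and -0.82. *Slc25a20* (ENSMUSG00000032602, chromosome 9), which brings acylcarnitines into mitochondria for fatty acid oxidation, had the largest positive difference of the class at 0 h. It was 146, 143 and 144 CPM in *Nanog* KO and 61.5 and 59.2 CPM in control libraries at 0 h, and 93.4, 89.8 and 94.5 CPM against 55.1, 57.9 and 59.9 CPM at 24 h. The groups stayed apart while the difference narrowed, from 1.24 ± 0.05 (SE; adjusted p = 2.4e-12, limma) to 0.68 ± 0.05 (SE; adjusted p = 2.1e-09, limma).

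The 2 aspartate and glutamate carriers of the malate-aspartate shuttle differed in opposite directions. *Slc25a13* (citrin) was higher in *Nanog* KO cells, at 202, 206 and 203 CPM against 133 and 132 CPM at 0 h (log2 fold change 0.61 ± 0.05, SE; adjusted p = 1.2e-08, limma), and *Slc25a12* (aralar) was lower, with -0.25, -0.42 and -0.58. Leaving out control replicate 2 ended the first of these calls (-0.17). *Slc25a24*, a carrier of ATP-magnesium and phosphate, was lower at all times, at 20.9, 20.1 and 21.6 CPM against 38.3 and 40.0 CPM at 0 h (log2 fold change -0.88 ± 0.13, SE; adjusted p = 1.2e-05, limma), and fell in both genotypes. *Slc25a44*, a carrier of branched-chain amino acids, was not called at 0 h (0.05) and was higher at 24 h, at 47.0, 46.4 and 50.2 CPM against 28.4, 26.6 and 27.3 CPM (log2 fold change 0.78 ± 0.06, SE; adjusted p = 2.0e-09, limma). *Slc25a1*, the citrate carrier that supplies acetyl-CoA for lipid synthesis, fell by 12 h in both genotypes (-0.63 and -0.65). *Slc25a22*, a glutamate carrier, was lower at 0 h (-0.74) and not called at 24 h (0.00).

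Families 13 and 34, among the inorganic ion carriers, held the largest positive differences of any member at 0 h. *Slc13a5* (ENSMUSG00000020805, chromosome 11), a sodium-coupled citrate importer, was 16.1, 15.9 and 14.7 CPM in *Nanog* KO and 1.65 and 1.76 CPM in control libraries at 0 h, a log2 fold change of 2.61 ± 0.16 (SE; adjusted p = 2.3e-10, limma). At 24 h it was 3.42, 3.49 and 3.98 CPM against 0.608, 0.626 and 0.477 CPM (1.56), and it fell over 24 h in both genotypes (-1.84 and -0.79). *Slc34a2*, a sodium phosphate cotransporter of epithelia, was 3.70, 3.56 and 4.46 CPM against 0.0689 and 0.319 CPM at 0 h (2.04). *Slc20a1*, a phosphate importer, rose in both genotypes to 442, 416 and 411 CPM in *Nanog* KO and 253, 244 and 253 CPM in control libraries at 12 h, and differed by 0.83, 0.76 and 0.48. *Slc9a7*, a sodium and proton exchanger of the Golgi, was higher in *Nanog* KO cells in serum, by 1.30 and 1.14, and was not called at 0 h (0.31); its interaction of genotype and time to 24 h passed (0.83, adjusted p = 0.036, limma). *Slc13a4*, a sulphate carrier, fell in both genotypes over 24 h (-1.34 and -1.26). In the class of 38 members 11, 8 and 14 were higher and 5, 7 and 6 lower at the 3 times, beside 25.4%, 24.6% and 23.4% of all genes higher and 26.9%, 25.2% and 24.5% lower.

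Nucleoside carriers differed in both directions. *Slc29a1* (ENT1), the main equilibrative carrier, was 339, 332 and 328 CPM in *Nanog* KO and 180.2 and 173 CPM in control libraries at 0 h (log2 fold change 0.91 ± 0.05, SE; adjusted p = 2.5e-11, limma) and higher by 0.40 at 24 h. *Slc29a2* (ENT2) was lower at 0 h, at 10.1, 10.6 and 10.2 CPM against 21.2 and 20.2 CPM (log2 fold change -0.94 ± 0.11, SE; adjusted p = 7.4e-07, limma), and did not pass at 24 h (-0.07, adjusted p = 0.6, limma). *Slc28a1*, a sodium-coupled carrier of pyrimidine nucleosides, was lower in *Nanog* KO cells in serum (-0.40 and -0.61). *Slc28a3*, of the same family, was higher at 0 h, at 3.23, 2.18 and 2.84 CPM against 0.551 and 0.838 CPM (log2 fold change 1.14). The 5 members of family 35 were classed as carriers of nucleotide sugars. Of these 5, 2 were higher and 1 lower at 0 h, where 25.4% and 26.9% of all genes were. At 12 h 0 were higher and 0 lower (24.6% and 25.2% of all genes), and at 24 h 0 and 1 (23.4% and 24.5% of all genes). These counts of 0 (limma) were also 0 at an unadjusted p under 0.05 and by edgeR and DESeq2. *Slc35a1*, which carries CMP-sialic acid, was the lower one at 0 h (-0.40).

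Of the 7 members of family 22, carriers of organic cations, anions and carnitine, 0 were higher at 0, 12 or 24 h and 4, 4 and 2 were lower. Over all genes 25.4%, 24.6% and 23.4% were higher and 26.9%, 25.2% and 24.5% lower, and the count of lower members at 24 h was near that share. At an unadjusted p under 0.05 (limma) 0, 1 and 1 were higher, and at 24 h edgeR and DESeq2 each called 1. *Slc22a3* (OCT3), an organic cation carrier, was 0.417, 0.531 and 0.744 CPM against 3.45 and 4.51 CPM at 0 h (log2 fold change -1.67 ± 0.15, SE; adjusted p = 3.9e-08, limma), and *Slc22a17*, a receptor for the iron-binding protein lipocalin 2, was lower at all 3 times (-1.09, -0.94 and -0.50). *Slc47a1* (MATE1), which exports organic cations, rose from 1.72, 1.91 and 1.88 to 6.80, 9.08 and 5.79 CPM in *Nanog* KO libraries and from 0.827 and 0.279 to 4.51, 5.01 and 4.22 CPM in control libraries.

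Among vitamin carriers, the ascorbate importer *Slc23a1* was 0.260, 0.849 and 0.438 CPM at 0 h and 6.19, 4.67 and 5.88 CPM at 24 h in *Nanog* KO libraries, and 0.827 and 1.12 then 4.82, 4.84 and 4.51 CPM in control libraries. It rose in both, with log2 fold changes of 2.13 ± 0.17 (SE; adjusted p = 7.7e-09, limma) and 1.54 ± 0.19 (SE; adjusted p = 2.5e-06, limma). *Slc52a3*, a riboflavin importer, was lower in *Nanog* KO cells, most at 12 h, at 1.85, 2.04 and 2.11 CPM against 5.67, 7.58 and 6.30 CPM (log2 fold change -1.32 ± 0.12, SE; adjusted p = 2.8e-08, limma). *Slc48a1*, which moves haem out of endosomes and lysosomes, rose more in *Nanog* KO cells (interaction 0.61, adjusted p = 5.4e-04, limma), to 30.2, 28.7 and 34.4 CPM against 23.3, 21.3 and 20.2 CPM at 24 h (0.51), and lies on chromosome 15. *Slc44a1*, a choline transporter, fell in both genotypes over 24 h (-0.93 and -0.66).

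Over the whole set, members rose more often than they fell by 12 h in both genotypes, and by 24 h in *Nanog* KO cells only. By 12 h 77 rose and 49 fell (25.7% of all genes tested rose and 26.1% fell), and by 24 h 81 rose and 59 fell (28.8% and 29.5% of all genes). In control cells 59 rose and 35 fell by 12 h (22.6% and 24.5% of all genes), and 61 rose and 61 fell by 24 h (26.1% and 28.7% of all genes). The changes to 12 and 24 h share the 0 h libraries. From 0 to 24 h, 42 members rose in both genotypes (19.2%, against 16.2% of all genes) and 34 fell in both (15.5%, against 17.8%). There were 15 members that rose in one genotype and fell in the other (6.85%, against 3.97% of all genes). They are *Slc1a4*, *Slc2a8*, *Slc4a2*, *Slc5a6*, *Slc6a16*, *Slc7a6*, *Slc16a1*, *Slc17a7*, *Slc22a23*, *Slc29a1*, *Slc29a2*, *Slc29a3*, *Slc39a8*, *Slc43a1* and *Slc43a3*.

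The change over 24 h differed between the genotypes in 74 members by the interaction of genotype and time. It was more positive in *Nanog* KO cells in 38 members (15.5% of all genes) and more negative in 36 (14.3% of all genes). The difference at 0 h is part of the interaction, so members that differed at 0 h and converged are among them. *Slc39a8* (ENSMUSG00000053897, chromosome 3), an importer of zinc and manganese, had the largest interaction and crossed over. It was 1.67, 2.60 and 2.14 CPM in *Nanog* KO and 6.13 and 6.26 CPM in control libraries at 0 h, 7.13, 7.23 and 6.02 against 3.52, 3.91 and 3.69 CPM at 12 h, and 10.7, 10.4 and 12.7 against 4.11, 3.84 and 3.85 CPM at 24 h. *Nanog* KO libraries were all below the control at 0 h and all above it later, the log2 fold changes being -1.21 ± 0.13 (SE; adjusted p = 2.9e-07, limma), 0.72 and 1.31 ± 0.12 (SE; adjusted p = 3.1e-08, limma). The interaction was 2.52 ± 0.17 (SE; adjusted p = 1.0e-08, limma).

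Other large positive interactions came from members that started lower in *Nanog* KO cells. *Slc40a1*, described above, had an interaction of 1.72 ± 0.17 (SE; adjusted p = 7.0e-07, limma). It rose in *Nanog* KO libraries and had no called change in control ones over 24 h. For *Slc1a4* (1.16) and *Slc43a1* (1.13) the mutant libraries rose and the control libraries fell. On the negative side, *Slc43a3*, which carries purine nucleobases, went from a mean of 16.4 to 11.2 CPM without *Nanog* and from 5.97 to 8.25 CPM in control cells, an interaction of -0.91 ± 0.13 (SE; adjusted p = 5.4e-05, limma). *Slc2a8*, a glucose transporter of inner membranes, had -0.84 and *Slc37a1* -0.66. The interaction of *Slc13a5* (-1.05) did not pass with 0.1 CPM added (-0.64), by edgeR (-0.52) or by DESeq2 (-0.51).

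**Figure D5:**
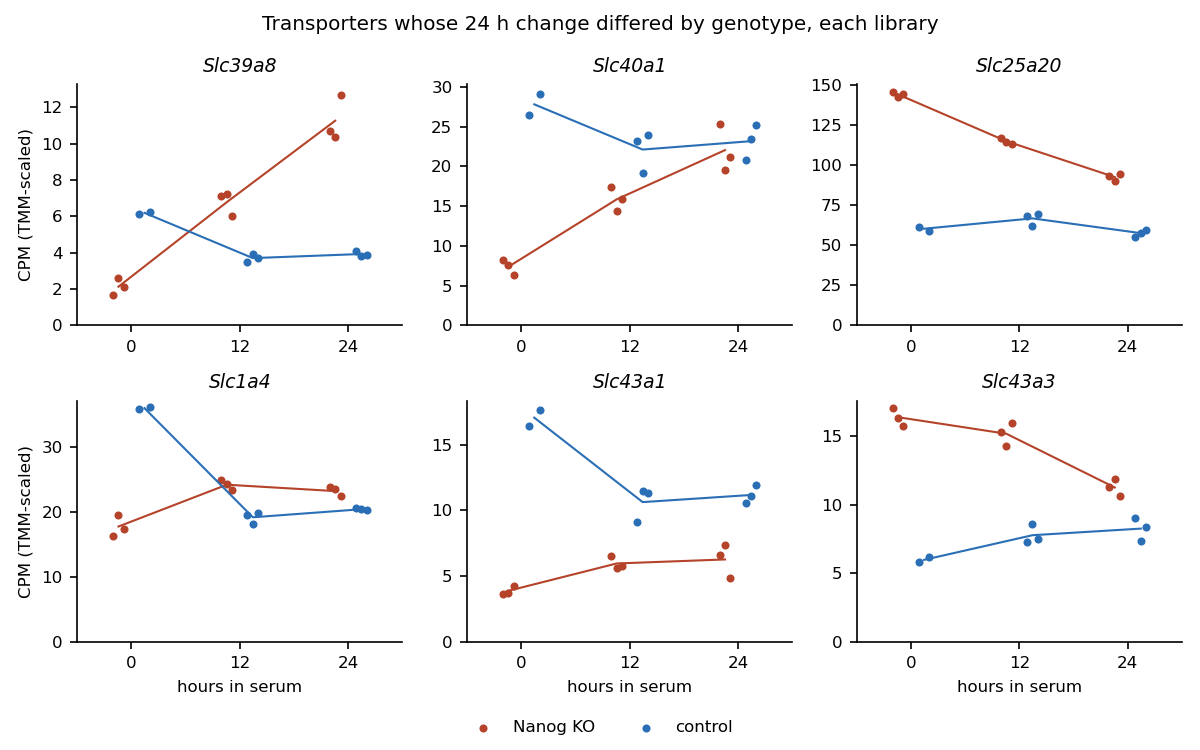
TMM-scaled CPM (vertical axis, from 0) of 6 transporters whose change over 24 h differed between the genotypes, against hours in serum (horizontal axis), with 1 point per library and lines through the group means. *Slc39a8* crosses from below to above the control, *Slc40a1* and *Slc1a4* start apart and end within 5 CPM of each other by mean, and *Slc25a20*, *Slc43a1* and *Slc43a3* come closer without overlap.

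Genes that work with these transporters did not move in one direction. A list of 30 subunits, regulators and transporters with other names was set from general knowledge, and 26 were tested. Higher and lower calls numbered 11 and 9 at 0 h, 11 and 8 at 12 h and 10 and 7 at 24 h, with medians of 0.04, -0.11 and 0.07 (over all genes 25.4% and 26.9%, 24.6% and 25.2%, and 23.4% and 24.5%). *Bsg* (basigin), the chaperone that *Slc16a1* and *Slc16a3* need to reach the cell surface, fell over 24 h, from a mean of 631 to 350.3 CPM without *Nanog* and from 505 to 280.1 CPM in control cells. *Mpc1*, a subunit of the mitochondrial pyruvate carrier, was higher in *Nanog* KO cells at 26.7 against 11.1 CPM by mean at 0 h, and by 0.52 on the log2 scale at 24 h. *Slco2a1*, a prostaglandin transporter, was higher by 2.19 and 2.34. Of 19 genes of the amino acid response, which *Slc38a2*, *Slc7a1* and *Slc7a5* are known to share, 5 were higher and 6 lower at 0 h, 9 and 4 at 12 h, and 9 and 3 at 24 h. *Atf4*, the transcription factor of that response, was higher by 0.70 at 0 h, was at means of 229 and 114 CPM in mutant and control cells at 24 h, and lies on chromosome 15. By 24 h 5 of the 19 had risen and 11 had fallen without *Nanog*, against 1 and 12 in control cells (over all genes 28.8% and 29.5%, against 26.1% and 28.7%).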

How the data were processed

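RNA-seq of *Nanog* KO (BT12) and control (E14Tg2a) ES cells gave 17 libraries. Per the study's methods and the submitters' notes, which also name CASAVA 1.8.2, reads were trimmed with Cutadapt 1.3 and quantified with RSEM (1.2.3 in the notes, another version in the methods) on GRCm38 with Ensembl annotation, and genes were kept at 1 CPM or more in at least 3 libraries. The authors deposited 1 table of TMM-scaled CPM, treated as a signal. All values (100%, tolerance 0.001 reads) were whole multiples of 1 read, so reads were recovered; edgeR on them called 75 members higher and 54 lower at 0 h, 72 and 50 at 12 h, and 79 and 47 at 24 h. ComBat is named in the methods and left no trace in the values. Whether counting used strand is not given in the sources used here, so overlapping and antisense genes cannot be told apart. One protocol label speaks of single embryos and another kit than the culture and design texts.

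The 15117 genes with at least 1 CPM in 3 libraries were fitted with limma 3.58.1 (R 4.3.3, trend) on log2(CPM + 1), 1 coefficient per group over all libraries, with Benjamini-Hochberg adjustment over all genes and a two-sided threshold of 0.05. Fold changes on this scale understate the change of low genes. The fit was tested on simulated data. Alternatives were edgeR 4.0.16 and DESeq2 1.42.0 on recovered reads, 0.1 CPM added, other scalings, other filters, a replicate block, only the groups compared, and each library left out. Genes were named by rule: in each genotype comparison the 10 called members of each sign with the largest difference, in each time change and the interaction the 5 of each sign (group mean at least 5 CPM), and the 3 of highest mean CPM per class. Some members that the rule names are not reported here. Others in the text were chosen after their values were seen. The members and all lists were chosen with earlier results of these data known. No libraries agreed within sampling noise.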

Additional observations from a re-analysis of the deposited data

Results flagged for a closer look

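The results here were picked out because the change from 0 to 24 h differed between the genotypes by the interaction term of limma. The change was more positive in *Nanog* KO cells in 38 members and more negative in 36, near the shares of all genes (15.5% and 14.3%), so these counts are not a result about the members. On the positive side the interactions were 2.52 for *Slc39a8*, 1.72 for *Slc40a1*, 1.16 for *Slc1a4* and 1.13 for *Slc43a1*. On the negative side they were -1.05 for *Slc13a5*, -0.91 for *Slc43a3*, -0.84 for *Slc2a8* and -0.66 for *Slc37a1*. That of *Slc13a5* did not pass with 0.1 CPM added, by edgeR or by DESeq2. *Slc2a8* was 13.4, 11.7 and 14.2 CPM in *Nanog* KO and 7.58 and 8.14 CPM in control libraries at 0 h, and 10.7, 7.89 and 8.35 against 11.7, 9.77 and 9.10 CPM at 24 h. The interaction shares the 0 h libraries with the genotype comparison at 0 h. Groups of 2 or 3 libraries are too small for a test of single libraries.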

How the results depend on the processing

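Of 448 counts of members recomputed under the alternatives, 432 were within 1.5 times the reported one, and the other 16 were those with a fold of at least 2. With that limit, the genotype comparison kept 12 higher and 11 lower members at 0 h, 7 and 8 at 12 h, and 8 and 3 at 24 h. In *Nanog* KO cells 9 rose and 4 fell by 12 h and 15 and 6 by 24 h, in control cells 7 and 3, then 12 and 7, and the interaction kept 6 and 5. The shares of all genes at that limit were not counted. With a library left out, 62 to 77 members were higher and 44 to 54 lower at 0 h, 64 to 72 and 42 to 52 at 12 h, and 65 to 82 and 33 to 48 at 24 h. Replicate numbers did not pair the libraries (correlations of same-numbered deviations from -0.19 to 0.10, with 2 of 17 libraries closest to their own number), and a replicate block gave 72 higher and 52 lower at 0 h, 70 and 47 at 12 h and 76 and 45 at 24 h. Over 134 genes and 27648 refitted values, 26853 kept a call in the same direction or stayed uncalled. The call was lost in 599 and gained in 194, and 2 values reversed. Direction was not compared where neither fit made a call. The reversed ones were the changes of *Slc25a3* and *Slc25a5* in control cells by 12 h, -0.12 and -0.15 as reported and 0.05 and 0.01 with quantile scaling. The cause was not tested. Depth limits members near 1 CPM, where 3 reads are up to 0.326 CPM.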
